A study of Homo sapiens with 6 samples.

Results

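The regions described here are accessible regions listed for Huh7 cells with wild-type ARID1A and not for Huh7 cells with the V2084D form, or the reverse. Peaks of the 2 WT and the 2 V2084D lists on chromosomes 1 to 22 and X were merged where they overlapped by 1 bp. A region was called V2084D-only when both V2084D libraries and neither WT library had a peak in it, and WT-only in the opposite case. Of 25002 merged regions, 1690 were group-specific: 1630 were V2084D-only, or 6.52% of all regions, and 60 were WT-only, or 0.24%. At equal list length that excess of V2084D-only regions was not kept, with 484 V2084D-only and 504 WT-only regions.

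ATAC-seq, which uses the transposase Tn5 to cut and tag open DNA, was run on frozen nuclei of Huh7, an established human hepatocellular carcinoma line. In all groups ARID1A was knocked out and an ARID1A transgene was stably expressed from a lentivirus. The WT group (2 libraries) overexpressed Flag-tagged wild-type ARID1A and the V2084D group (2 libraries) Flag-tagged ARID1A with the missense change V2084D. A further group, V2084D shSTUB1 (2 libraries), carried V2084D and a knockdown of the ubiquitin ligase STUB1, and is used here only as libraries that did not enter the choice of regions. The labels do not say whether the cells are clones or a pool or how much transgene they expressed, and nothing there says that replicates are separate cultures.

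ARID1A is the large subunit that defines the canonical BAF form of the SWI/SNF complexes, which use ATP to slide or evict nucleosomes and so keep promoters and enhancers open to transcription factors. Its ARID domain binds DNA, and its C-terminal part contacts other subunits of the complex. ARID1A is often mutated in cancers, liver cancer among them, and loss of BAF activity is known above all for closing distal enhancers.

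Promoter sequences are shown first, because 752 of the 1630 V2084D-only regions (46.1%) lay at an annotated gene start. That share was 38.1% of all regions, 39.8% with 1 library of each group and 67.2% with all 4 libraries. Each is the 250 bases before the start site of a gene, read 5′ to 3′ on the strand of the gene, from RefSeq (assembly GRCh38.p14; the peak lists use hg38, the same assembly). Capitals mark matches, on either strand, to CCGGAAG (the letters bound by ETS factors), GGGCGG (SP and KLF factors), CCAAT (NFY), the palindromic NRF1 motif, AANATGGCG (YY1) and TGANTCA (AP-1). The first 4 promoters belong to V2084D-only regions that stayed V2084D-only in every one of 6 other settings, described below.
ZNF70, chr22:23751113-23751362, minus strand: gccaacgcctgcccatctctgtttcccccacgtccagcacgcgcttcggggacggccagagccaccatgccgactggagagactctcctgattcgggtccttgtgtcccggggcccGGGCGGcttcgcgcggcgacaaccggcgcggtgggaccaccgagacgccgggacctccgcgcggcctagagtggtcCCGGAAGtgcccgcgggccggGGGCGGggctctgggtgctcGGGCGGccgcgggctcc
AARSD1, chr17:42964455-42964704, minus strand: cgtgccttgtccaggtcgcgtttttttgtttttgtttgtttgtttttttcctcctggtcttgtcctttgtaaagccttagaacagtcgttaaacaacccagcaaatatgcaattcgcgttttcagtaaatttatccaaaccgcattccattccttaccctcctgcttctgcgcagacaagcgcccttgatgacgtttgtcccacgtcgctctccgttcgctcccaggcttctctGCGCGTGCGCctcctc
DPP3, chr11:66480184-66480433, plus strand: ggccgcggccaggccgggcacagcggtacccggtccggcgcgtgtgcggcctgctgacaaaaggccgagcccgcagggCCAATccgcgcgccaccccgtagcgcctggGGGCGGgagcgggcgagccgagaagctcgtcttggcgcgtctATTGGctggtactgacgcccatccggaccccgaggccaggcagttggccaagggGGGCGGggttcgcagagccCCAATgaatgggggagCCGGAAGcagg
GOSR2, chr17:46922910-46923159, plus strand: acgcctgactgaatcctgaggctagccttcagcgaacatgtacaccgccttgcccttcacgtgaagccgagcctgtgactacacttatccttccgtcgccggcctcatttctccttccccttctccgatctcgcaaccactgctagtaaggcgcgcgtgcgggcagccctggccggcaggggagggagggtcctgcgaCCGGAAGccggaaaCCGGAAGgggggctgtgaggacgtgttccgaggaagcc
These 4 differ in their letters. Among the marked motifs, ZNF70 carries 3 SP/KLF matches and 1 ETS match, and DPP3 has 3 NFY, 2 SP/KLF and 1 ETS match. GOSR2 has 2 ETS matches. AARSD1, with the lowest GC content of the 4 at 48.8%, has a single NRF1 match. Other motifs searched below were not marked. Of these, AARSD1 also holds GGAATG, on the other strand, and GOSR2 holds CACGTG. The next 2 belong to genes with a peak in both WT and neither V2084D library.
IDH3B, chr20:2664217-2664466, minus strand: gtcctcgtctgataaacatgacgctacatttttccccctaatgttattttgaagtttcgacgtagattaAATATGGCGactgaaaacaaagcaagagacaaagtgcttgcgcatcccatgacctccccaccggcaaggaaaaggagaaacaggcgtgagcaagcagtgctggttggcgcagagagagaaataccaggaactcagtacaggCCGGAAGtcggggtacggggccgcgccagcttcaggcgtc
DHX15, chr4:24584555-24584804, minus strand: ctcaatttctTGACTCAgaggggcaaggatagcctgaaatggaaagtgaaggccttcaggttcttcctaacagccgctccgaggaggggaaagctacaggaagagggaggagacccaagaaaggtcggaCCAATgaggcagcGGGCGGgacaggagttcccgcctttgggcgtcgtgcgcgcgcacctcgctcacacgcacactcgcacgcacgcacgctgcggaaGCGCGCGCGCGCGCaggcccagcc
Among the marked motifs, IDH3B carries 1 ETS and 1 YY1 match, and DHX15 carries AP-1, SP/KLF and NFY matches and 3 overlapping NRF1 matches. No sequence of distal regions was used here.

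The lists differed in length and depth. The number of peaks was 9421 and 6743 in WT replicates 1 and 2 (8082 ± 1894, SD, n = 2) and 8428 and 22978 in V2084D replicates 1 and 2 (15703 ± 10288, SD, n = 2), so V2084D replicate 1 fell between the WT libraries and V2084D replicate 2 stood apart. Relative depth, recovered from the deposited values, was 1.01 and 1 in WT and 1.17 and 1.70 in V2084D. Both V2084D libraries were deeper than both WT libraries, so depth and group cannot be told apart. With 2 libraries a group, the smallest two-sided p of an exact permutation test is 0.333, and the test gave 0.667 for the number of peaks and 0.333 for depth. The label was checked against markers: of 13 hepatocyte genes only APOA1 and TF had a peak within 1000 bp of a gene end in any of the 4 lists, and ALB, AFP and HNF4A had none. Peaks were also found at 1 of 5 leukocyte genes (SPI1), 1 of 4 endothelial genes (KDR), 1 of 5 fibroblast and stellate genes (COL1A1) and 2 of 4 neuronal genes (SYT1 and GAP43). No marker list differed by more than 1 gene between any of the 4 libraries. In bulk cells, fewer cells with an open region and less signal per cell cannot be told apart. ARID1A itself had 1 peak of 6 reads in WT replicate 1 and 1 of 5 reads in WT replicate 2, which did not overlap, none in the V2084D libraries, and 1 of 12 reads in V2084D shSTUB1 replicate 2.

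**Figure D1:**
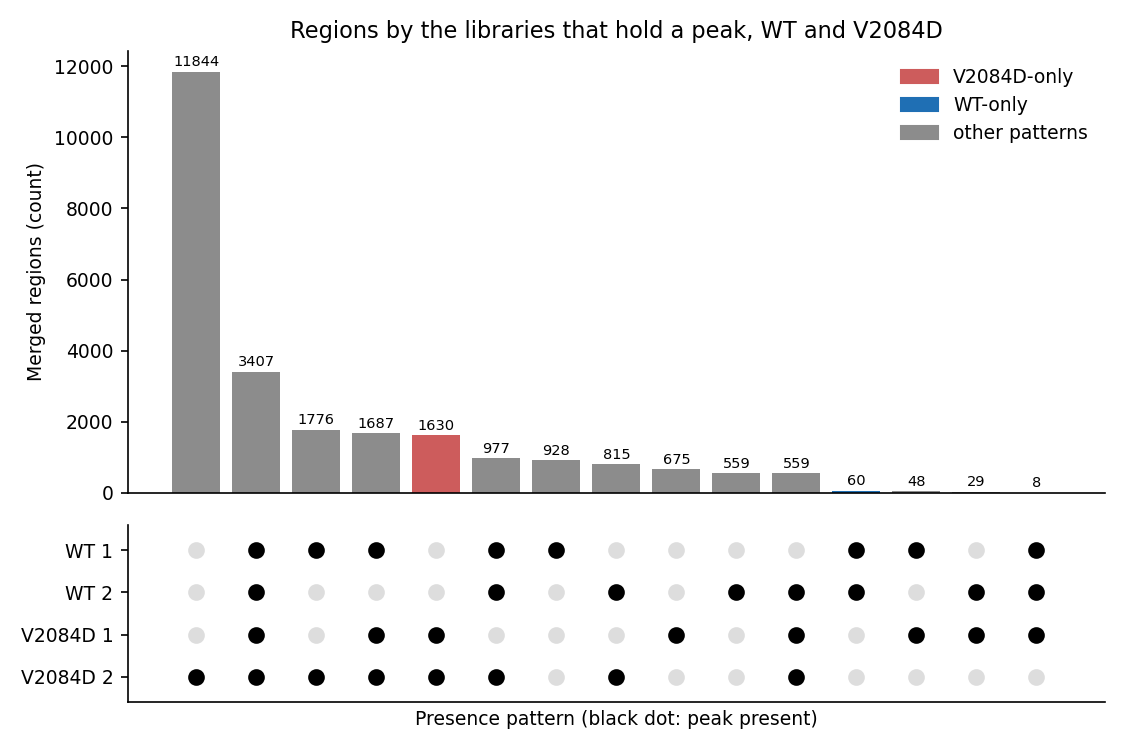
Number of merged regions (vertical axis, count) for each combination of libraries with a peak (black dots below). The largest class is V2084D replicate 2 alone with 11844 regions, against 1630 V2084D-only (red) and 60 WT-only regions (blue).

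V2084D-only regions were 1 of several patterns, and not the most frequent. Peaks in all 4 libraries were seen in 3407 regions, in V2084D replicate 2 alone in 11844 and in V2084D replicate 1 alone in 675. Pairs made of 1 library of each group accounted for 2668 regions, of which 1776 paired WT replicate 1 with V2084D replicate 2. That single mixed pair thus held more regions than the V2084D pair. On the border of the rule, 2246 regions had peaks in both V2084D libraries and exactly 1 WT library, and in 12 of them the WT peak overlapped a V2084D peak by less than 50 bp, down to 1 bp. On the inner side, 92 of the V2084D-only regions (5.64%) had a WT peak within 200 bp without overlap, and the median distance to the nearest WT peak was 47679 bp. WT-only regions had a V2084D peak within 200 bp in 16 of 60 cases (26.7%), and at a median of 9654.5 bp. These distances are to lists of unlike length, with a mean of 15703 peaks in V2084D and 8082 in WT. They are therefore not comparable between the 2 sets, and their difference was not tested.

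How many regions were group-specific depended on single libraries. Without V2084D replicate 2 there were 2771 V2084D-only and 1059 WT-only regions, and without V2084D replicate 1 there were 13603 and 71. Without WT replicate 1 the counts were 3331 and 632, and without WT replicate 2 they were 2188 and 996. In these counts a group of 1 library needs only 1 peak. With reads scaled to the lowest depth 1264 and 107 regions were found, and with peaks of a −log10 q of at least 5 there were 801 and 21. V2084D-only regions outnumbered WT-only regions in each of these settings, by 2.20 to 192 times, and did not at equal list length.

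**Figure D2:**
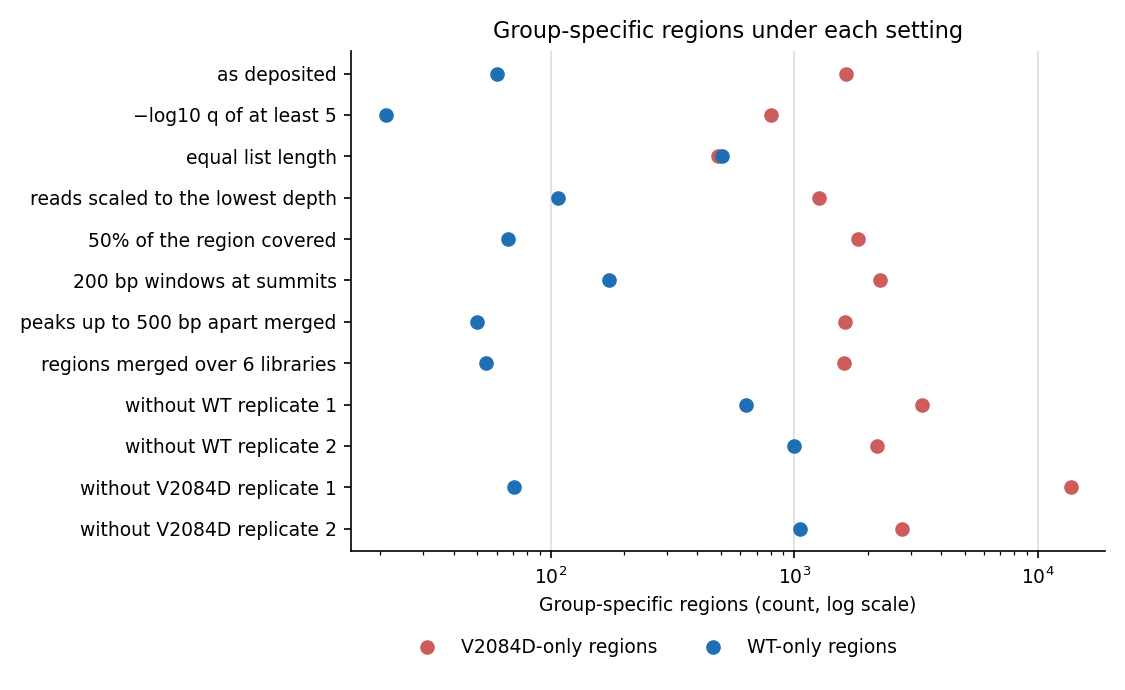
Number of V2084D-only (red) and WT-only (blue) regions (horizontal axis, count, log scale) under each setting (vertical axis). The points nearly coincide only at equal list length, at 484 and 504.

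Group-specific regions ranked lower in their own lists than regions shared by all 4 libraries. These values belong to the contrast that chose the regions and are a description. V2084D-only regions rested on a median of 7 reads at the summit in V2084D replicate 1 and 12 in replicate 2, and had median percentiles of −log10 q of 37.2 and 57.0 within these lists. For regions with a peak in all 4 libraries the median percentiles in the same lists were 65.0 and 89.2. WT-only regions had a median of 6 reads in each WT library and median percentiles of 32.1 and 24.9. At these read numbers a missing peak says that none was called at this depth, not that the DNA was closed. Median lengths were 530 bp for V2084D-only, 325.5 bp for WT-only and 827 bp for regions of all 4 libraries.

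**Figure D3:**
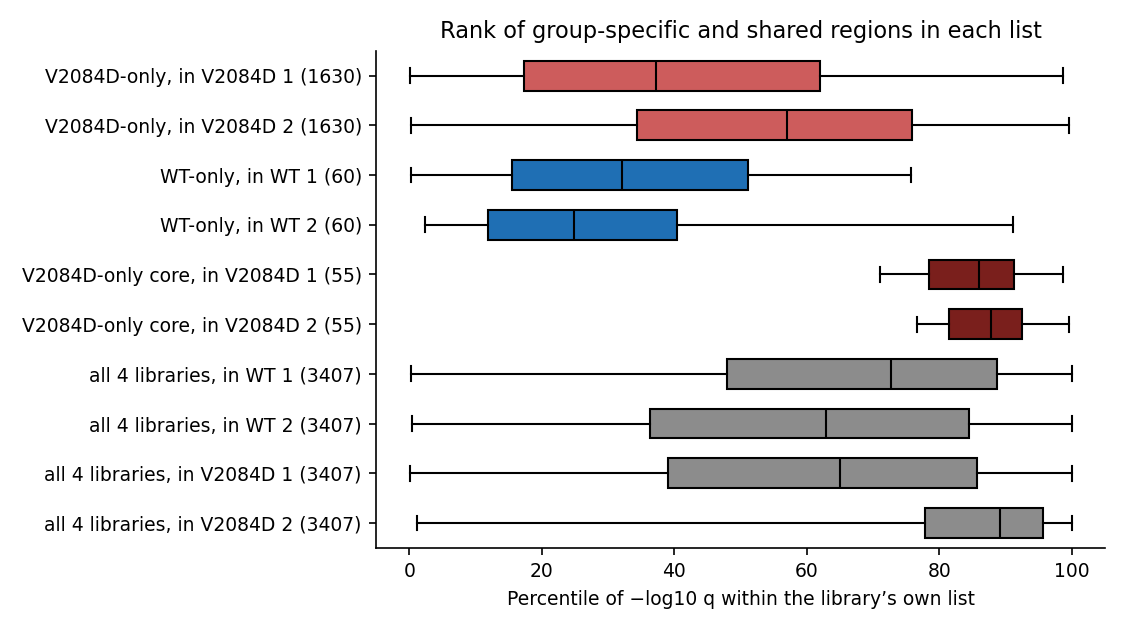
Percentile of −log10 q within the library's own list (horizontal axis) for V2084D-only, WT-only, V2084D-only core and shared regions (boxes: quartiles and median; whiskers: lowest and highest). Median percentiles of V2084D-only regions are 37.2 and 57.0, below those of regions present in all 4 libraries in the same lists.

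By position, most V2084D-only regions lay at gene ends, as did most peaks of both WT lists. Of the 1630, 940 (57.7%, exact binomial 95% interval 55.2 to 60.1) lay within 1000 bp of the start or end of a protein-coding gene, 317 inside genes only (19.4%) and 373 outside genes (22.9%), 150 of them over 50 kb from any protein-coding gene. Gene ends are the outer bounds of a gene. Regions at an annotated start farther inside, as in KDELR1 and FAM13B, therefore count as inside genes only. Intervals of shares here cover counting error only, as regions are not replicates. Gene ends made up 75.8% of regions with a peak in all 4 libraries, 48.2% of regions with 1 library of each group and 46.0% of all regions. Of the 60 WT-only regions, 20 were at gene ends (33.3%, interval 21.7 to 46.7), 21 inside genes only and 19 outside. The order of the groups turned without V2084D replicate 2, with 54.0% of V2084D-only and 59.7% of WT-only regions at gene ends, and at equal list length the shares were 72.9% and 56.5%. Without V2084D replicate 1 they were 36.9% and 32.4%, without WT replicate 1 they were 63.9% and 21.7%, and without WT replicate 2 they were 59.6% and 24.3%. The gene-end share also differed between whole lists, at 65.9% and 48.2% of peaks in V2084D replicates 1 and 2. In WT replicates 1 and 2 it was 62.1% and 63.0%, above the 57.7% of V2084D-only regions. Along the genome, V2084D-only regions made up 4.68% of the regions of chromosome 14 and 9.17% of those of chromosome 15, the lowest and highest of the chromosomes.

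The V2084D-only regions least dependent on the settings were the 55 that kept the pattern in all 6 of the other settings: the stricter q, equal list length, scaled depth, 50% coverage, 200 bp windows at summits and merging of peaks up to 500 bp apart. They are 0.22% of all regions and 3.37% of the V2084D-only regions, and the corresponding share for WT-only was 0%, since no WT-only region passed all 6. Of the 55, 38 lay at gene ends, 7 inside genes only and 10 outside genes. Summits rested on 8 to 35 reads in V2084D replicate 1 and 11 to 88 in replicate 2. The values named below for these regions are the authors' folds over local background in V2084D replicates 1 and 2, used only within each list, and no WT peak overlapped any of them.

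The strongest lay at the start of ZNF70, a zinc finger gene (chr22:23750954-23751595), with folds of 8.91 and 10 on 17 and 26 reads. It also had peaks in both V2084D shSTUB1 libraries, at folds of 4.91 and 4.25. AARSD1, an alanyl-tRNA editing gene (chr17:42964341-42965168), had folds of 7.87 and 8.85 on 13 and 22 reads, and the region at CAPG, which caps actin filaments, and SH2D6 (chr2:85418358-85419079) had 7.35 and 8.18. GFPT2, an enzyme gene at the entry of the hexosamine pathway (chr5:180353044-180353958), had 7.33 and 7.58. These 4 regions ranked high in both V2084D lists, with percentiles of −log10 q from 92.0 to 98.4.

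A further 10 of the 15 leading gene-end regions came from varied functions. ZFYVE9 encodes the endosomal anchor that presents SMAD proteins to TGF-beta receptors (folds 6.50 and 6.87, 15 and 24 reads), and ZYG11B encodes a substrate receptor of a cullin ubiquitin ligase (7.32 and 9.38, 11 and 17 reads). IFT70B, a gene of ciliary transport, had 7.56 and 8.49, and MRPL42, of the mitochondrial ribosome, 7.59 and 8.89. DPP3, a peptidase gene (chr11:66479929-66480709), had 6.84 on 12 reads and 11.1 on 33 reads, at percentiles of 86.0 and 99.4. Values at DHX9, an RNA helicase gene, were 6.98 and 7.5, and at GOSR2, a Golgi SNARE gene (chr17:46922750-46923500), 7.32 and 8.25. ATG16L2, a relative of the autophagy gene ATG16L1, had 6.91 and 6.25, ZNF71 had 7.03 and 8, and LHFPL6 had 6.84 and 8.56. LHFPL6 was the only 1 of the 15 without a peak in both V2084D shSTUB1 libraries, with a peak in replicate 1 of that group alone.

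Away from gene ends, 10 of the 17 remaining regions are named. The strongest lay outside genes on chr1:39606206-39606782, 16653 bp from HEYL, a transcriptional repressor gene of the Notch pathway, with folds of 7.98 and 10.7 on 14 and 26 reads. A region on chrX:115885322-115885905, over 50 kb from any protein-coding gene, had low folds of 3.91 and 4.44 on many reads, 35 and 88, over a local background of 8.2 and 19.0 reads. Regions inside FBXO8, an F-box gene (folds 7.56 and 8.80), CLN6, a gene of the endoplasmic reticulum mutated in a lysosomal storage disease (6.50 and 8.06), and GTPBP3, a mitochondrial tRNA modification gene (4.73 and 4.84), followed. The region in FAM13B (6.63 and 7.69) covered an annotated start inside the gene bounds. One lay 24840 bp from TRH, the thyrotropin-releasing hormone gene (6.79 and 8.33). The last 3 had no protein-coding gene within 50 kb and lay on chr6:5891642-5892382 (7.95 and 7.81), chr6:27752283-27752591 (7.14 and 7.87) and chr9:33676680-33677534 (6.79 and 8.54). Of these 10, 7 had peaks in both V2084D shSTUB1 libraries.

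Width and number within a gene picked out other V2084D-only regions. The 5 widest were at MED12L (1471 bp), inside JMJD1C, a gene of the histone demethylase family (1358 bp), at SDR42E2 (1315 bp), at PIGP and TTC3 (1292 bp) and inside FRMD6 (1280 bp). These are widths of merged regions, in which the strongest summits of V2084D replicates 1 and 2 can lie apart. At MED12L they were at 151086820 and 151085599. All 5 widest regions had peaks in both V2084D shSTUB1 libraries, and none was among the 55. Most genes with such a region held 1 (1245 genes), 33 held 2, and NFIA, a nuclear factor I transcription factor gene, held 3. NFIA spans 386 kb, and these 3 were among 8 merged regions of the 4 libraries there. Counts were not scaled to gene length. In V2084D replicates 1 and 2, the first of the 3 (chr1:61139283-61139767) rested on 5 and 9 reads. The second (chr1:61184239-61184781) had 6 and 10, and the last (chr1:61337971-61338259) had 7 and 5. Only the last had more reads in replicate 1 than in replicate 2.

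The 60 WT-only regions reached percentiles of at most 75.8 and 91.1 in WT replicates 1 and 2, and the 10 highest by the lower percentile are named by their folds in WT replicates 1 and 2. A region at the ends of LOC730098 and PHF24 (chr9:34665491-34665770) had 6.44 and 6.19 on 12 reads each, and a V2084D peak ended or began 20 bp away. Within TBCD, a tubulin-folding cofactor gene (chr17:82754693-82754912), folds were 6.32 and 5.98 on 10 reads each. ASPH, which encodes an aspartyl hydroxylase of the endoplasmic reticulum, held one of 6.49 and 6.06 on 9 and 7 reads, 23971 bp from the nearest V2084D peak. Between HSPBAP1 and SLC49A4 (chr3:122794067-122794269) folds were 5.77 and 5.92, and near RPL23A, a ribosomal protein gene (chr17:28719554-28719917), 5.31 and 7.07 on 11 and 13 reads. IDH3B, a subunit of mitochondrial isocitrate dehydrogenase (chr20:2664183-2664438), had 5.77 and 5.41 on 8 and 7 reads. The others lay 28117 bp from ROBO3, an axon guidance receptor gene (5.77 and 6.08), inside the adhesion gene ALCAM (5.38 and 6.49), inside PAG1 (5.30 and 5.22) and on chr7:25603378-25603631 (5.80 and 5.47). Of these 10, 4 had a V2084D peak within 200 bp, 4 had peaks in both V2084D shSTUB1 libraries and 3 in neither.

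The V2084D shSTUB1 libraries, which the rule did not use, showed how often the pattern came back in other cells with V2084D. Of the 1630 V2084D-only regions, 783 had a peak in both of these libraries (48.0%, interval 45.6 to 50.5) and 279 in neither (17.1%). Regions with 1 library of each group, which have as many peaks, reached 43.9% (interval 42.0 to 45.8), regions of V2084D replicate 2 alone 12.2% and regions of all 4 libraries 95.1%. Of the 60 WT-only regions, 16 had a peak in both (26.7%, interval 16.1 to 39.7) and 19 in neither (31.7%). For V2084D-only regions the share was 55.9% at gene ends, 37.2% inside genes and 37.5% outside genes, and it was 36.8% in the lowest 408 and 61.5% in the highest 408 regions by percentile in V2084D replicate 1. Of the 55 regions kept in every setting, chosen partly by their strength, 38 had peaks in both and none lacked both. Single libraries moved these shares. Without V2084D replicate 2 they were 35.9% for V2084D-only and 73.8% for WT-only regions, and without V2084D replicate 1 they were 16.5% and 32.4%. Without WT replicate 1 the values were 64.5% and 8.23%, and without WT replicate 2 they were 55.3% and 9.14%. The order of the groups thus turned when either V2084D library was left out. V2084D shSTUB1 libraries were also deeper than WT, at 1.49 and 1.23. With reads of all 6 libraries scaled to the lowest depth the shares were 48.3% and 25.2%. At equal list length they were 30.4% and 18.7%, and with 50% of a region covered they were 65.9% and 31.3%.

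**Figure D4:**
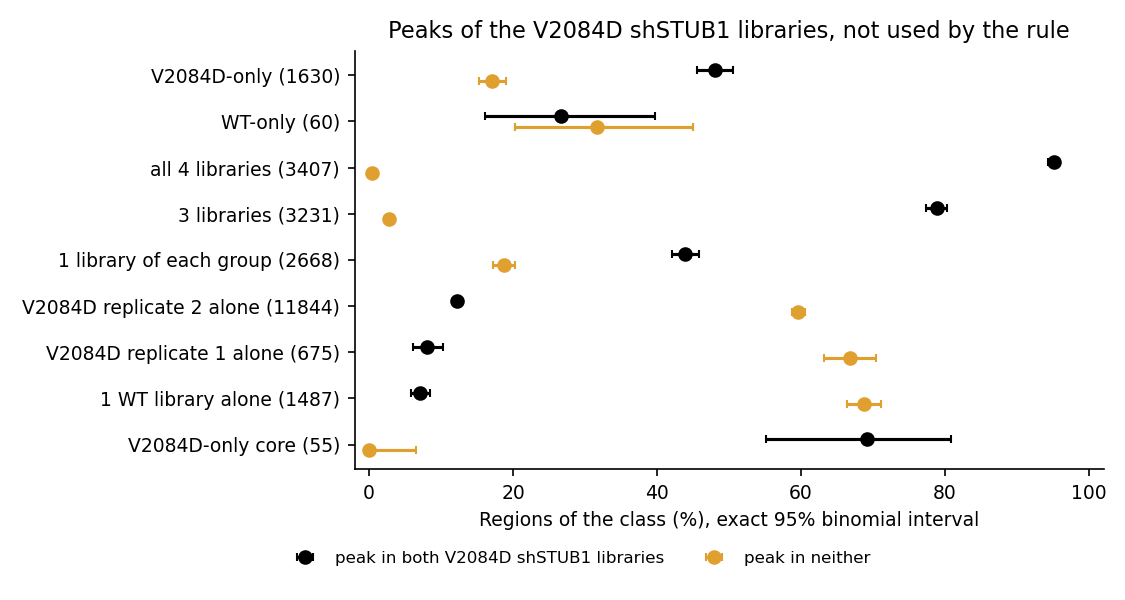
Share of regions in each class (vertical axis, number of regions in brackets) with a peak in both V2084D shSTUB1 libraries (black) or in neither (yellow), in percent with exact 95% binomial intervals. V2084D-only regions sit at 48.0%, near regions with 1 library of each group at 43.9% and far below regions of all 4 libraries at 95.1%.

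Counted by gene, at least 1 of the 4 libraries had a gene-end peak at 11178 of 19974 protein-coding genes. V2084D-only gene-end peaks were found for 1012 of them, or 9.05%, and WT-only for 10, or 0.0895%. At equal list length these counts were 393 and 346. Without V2084D replicate 2 they were 1102 and 697, without V2084D replicate 1 they were 3775 and 12, without WT replicate 1 they were 2396 and 49, and without WT replicate 2 they were 1448 and 96. Both V2084D shSTUB1 libraries had a gene-end peak at 612 of the 1012, and neither had one at 100. The 10 WT-only genes were ETAA1, FIGLA, ABCB6, DHX15, NIM1K, DXO, WHR1, RPL23A, NUFIP2 and IDH3B. At ETAA1 and ABCB6 the 2 WT peaks lay apart. RPL23A alone of the 10 also had a peak there in each V2084D shSTUB1 library. DHX15, an RNA helicase gene of the spliceosome, had 5 and 9 reads in WT replicates 1 and 2.

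Gene lists are given by the number of members with a V2084D-only gene-end peak among those with a gene-end peak in any of the 4 libraries, to be read against the 9.05% of all such genes. SWI/SNF subunits had 2 of 18, SMARCC2 (folds 4.88 and 6.10 in V2084D replicates 1 and 2) and SMARCD2 (4.74 and 5.32), both of which encode core subunits, and 4 of 18 had a peak in all 4 libraries. TGF-beta pathway genes had 4 of 14, among them the receptor gene TGFBR2 (7 and 10 reads in V2084D replicates 1 and 2), the signal transducer SMAD4 (4 and 9), and the target ID2 (11 and 15). TGFBR2 also had a peak in each V2084D shSTUB1 library, and ID2 had one in neither. YAP and TEAD genes, which act in the Hippo pathway, had 3 of 14: the phosphatase gene PTPN14 and the targets CCN2 and F3. Their summits rested on 8 and 15, 8 and 9, and 6 and 11 reads.

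Other regulators were few. CTNNB1, which encodes beta-catenin, was the 1 of 14 Wnt pathway genes, with 8 and 24 reads in V2084D replicates 1 and 2, and JUND was the 1 of 11 AP-1 genes, with peaks in the 2 libraries that did not overlap. Chaperones and STUB1 partners had 2 of 22, BAG3 and BAG5, which encode co-chaperones of HSP70. Cyclins and their regulators had 1 of 15 (CDKN1B, the p27 inhibitor), DNA damage genes 1 of 23 (XRCC5, the Ku80 end-joining factor), p53 targets 1 of 13 (TNFRSF10B, a death receptor gene, peaks not overlapping) and the PI3K, AKT and mTOR list 1 of 18 (MLST8, a subunit of mTOR complexes). None was found among 7 hepatocyte factor genes, 2 genes of secreted hepatocyte proteins and 19 cholesterol and fatty acid synthesis genes. The lists were not tested, and 1 member moves a list of 14 genes by 7.14 percentage points.

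Families with 30 or more such genes ranged from 4.76% to 15.1%. Mitochondrial ribosomal protein genes had 8 of 69 (11.6%), led by the peak shared by MRPL46 and MRPS11 (folds 8.24 and 9.23 in V2084D replicates 1 and 2). Of the 8, 7 also had one in each V2084D shSTUB1 library, with MRPL46 and MRPS11 counted separately. Among all V2084D-only genes that count was 612 of 1012. Cytosolic ribosomal protein genes had 6 of 76 (7.89%), among them RPLP1, RPL21, RPL30 and RPS2, and complex I genes 5 of 43 (11.6%). ZNF genes, many of which encode KRAB repressors of transposable elements, had 43 of 361 (11.9%). Of the 43, 26 had a peak in both V2084D shSTUB1 libraries, to be read against the same 612 of 1012. Genes named RAB had 8 of 53 (15.1%), solute carriers 18 of 195 (9.23%), transmembrane protein genes named TMEM 17 of 155 (11.0%), kinesins 4 of 32 (12.5%), TRIM genes 4 of 37, USP deubiquitinase genes 4 of 37 and proteasome genes 2 of 42. Mitochondrial carriers had 2 of 38 and HOX genes 1 of 16, and none was found among 10 protocadherin, 3 keratin and 1 olfactory receptor genes. RPL23A was the only member of these lists among the WT-only genes. Overlapping entries with the same peaks both count, as NDUFC2 and NDUFC2-KCTD14 in complex I and ZNF511 and ZNF511-PRAP1 among ZNF genes. At NDUFC2 the peaks of V2084D replicates 1 and 2 did not overlap.

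The promoters themselves were then compared by base composition and motifs over 300 bases, 250 before to 50 after each start, for 15812 genes with a RefSeq promoter. A peak overlapped the window in both V2084D and neither WT library at 746, in all 4 libraries at 1992 and in none at 7842. Median GC content was 67.3% for V2084D-only promoters (quartiles 61.7% and 72.9%), 64.3% for those of all 4 libraries, 66.0% with 1 library of each group, 67.7% with V2084D replicate 2 alone and 57.3% with none. The 15 WT-only promoters had a median of 60.7%. The difference between V2084D-only promoters and those of all 4 libraries thus recurred in promoters of V2084D replicate 2 alone.

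Of 14 motifs searched on both strands, CCAAT, the NFY letters, varied among promoters with a peak. It was found in 33.0% of V2084D-only promoters (interval 29.6 to 36.5), 37.6% of those with 1 library of each group, 40.7% with 3 libraries, 52.1% with all 4 (interval 49.8 to 54.3), 31.2% with V2084D replicate 2 alone and 36.3% of all promoters. Of the 15 WT-only promoters, 9 held it (60%, interval 32.3 to 83.7), 10 held the SP and KLF letters, 3 the ETS letters, 3 the NRF1 motif and none the TATA box letters. CCGGAAG, the ETS letters, was in 21.7% of V2084D-only promoters, 27.5% of those with all 4 libraries, 16.1% of those of V2084D replicate 2 alone and 14.2% of all promoters. GGGCGG, bound by SP and KLF factors, was in 73.9%, 75.8%, 75.8% and 58.5% of the same sets, and the NRF1 motif in 17.7%, 20.0%, 16.0% and 12%. TATAAA, the TATA box letters, was in 4.56% of V2084D-only promoters, 2.61% with all 4 libraries, 6.51% with V2084D replicate 2 alone and 9.64% of all promoters. In promoters with 1 library of each group and with 3 libraries, TATAAA was in 4.28% and 4.24%, and CCGGAAG in 24.7% and 26.25%. The other 9 motifs were TGANTCA, TGACGTCA (CRE), GGAATG (TEAD), TGTTTAC (FOXA), TTGCNNCAA (CEBP), AANATGGCG, CACGTG (E-box), and the ZBTB33 and HNF1 motifs. The HNF1 motif was found in 1 of all 15812 promoters. Matches of different motifs may overlap in GC-rich sequence, and a match is a description and not a bound site.

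**Figure D5:**
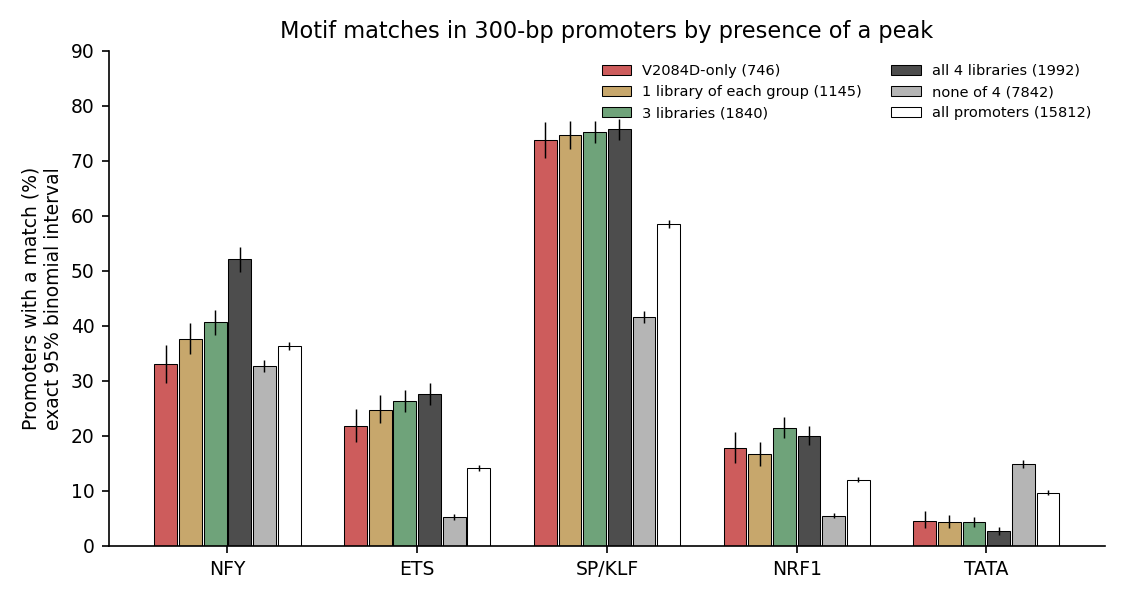
Share of 300-base promoters with a match to each of 5 motifs (vertical axis, percent, exact 95% binomial intervals) by the libraries with a peak over the promoter (bars; number of promoters in brackets). The NFY letters are in 33.0% of V2084D-only promoters (red) and 52.1% of those with a peak in all 4 libraries, while the SP/KLF letters differ little among promoters with a peak.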

How the data were processed

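ATAC-seq of 6 libraries was deposited as 1 narrowPeak list per library, with no pooling. Per the submitters' processing notes, the build was hg38, the caller MACS2, the aligner Bowtie2, and Trimmomatic, SAMtools, Picard, deepTools and bedtools were also used. Their versions, and whether reads were shifted for Tn5, are not stated there. The deposited score, a whole number per peak, was not used. The deposited fold is a ratio to local background. The authors' caller also gave each peak the deposited −log10 of its p-value and of its q-value. Peaks were called per library.

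From these, merged regions, presence and gene positions were computed in Python 3.11.15 (pandas 2.3.3, numpy 2.4.6, scipy 1.17.1; figures in matplotlib 3.10.9). Reads at summits (3 or more) were recovered by assuming fold = (reads + 1)/(background + 1) and a Poisson p. This gave whole reads, within 0.001 in −log10 p, for 99.99% to 100% of summits. The lowest background gave relative depth, and read totals were not used here. Simulated data checked only the code, with reads made by the same assumed formula and regions placed in both libraries of a group. They could not test calls from lists of unlike length. Genes and promoters came from RefSeq tables, and all symbols of 29 gene lists matched. The gene table gives no exons, so exonic and intronic positions were not separated. For the setting of equal list length, each list was reduced to its 7234 summits of highest −log10 q. The depth setting used a −log10 p minimum of 4.25 in all lists. No region test was run, as regions are not replicates.

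Named were the regions that passed all 6 settings (up to 15 at gene ends and 10 elsewhere, ranked by the lower of the 2 within-list percentiles), the 10 highest WT-only regions, up to 4 members per list, ARID1A, the 5 widest regions and genes with most regions. Genes with 2 regions are given by number. Some items named by the rule are not reported here. WT-only genes were all named because they were 10, and the printed promoters were picked after their values were seen. The members, lists and settings were chosen with earlier results of these data known. Columns left unmapped to samples numbered 0.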

Additional observations from a re-analysis of the deposited data

How the results depend on the processing

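No paired analysis was possible because every result is a count or a share that comes from no test, and the labels do not say whether libraries with the same number share a culture or day. Values below are given for V2084D-only and then WT-only.

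With a −log10 q of at least 5, regions numbered 801 and 21, gene-end shares were 73.2% and 61.9%, and the share with a peak in both V2084D shSTUB1 libraries was 42.8% for V2084D-only. At equal list length there were 484 and 504 regions, gene-end shares of 72.9% and 56.5%, 393 and 346 genes, and a V2084D shSTUB1 share of 30.4% for V2084D-only. With reads scaled to the lowest depth, WT-only regions numbered 107 and WT-only genes 36, and the V2084D-only gene-end share was 60.5%. With 50% of a region covered, the V2084D-only gene-end share was 64.3% and the V2084D shSTUB1 share 65.9%. Windows of 200 bp at summits gave 174 WT-only regions, gene-end shares of 64.7% and 56.3%, and a V2084D shSTUB1 share of 37.2% for V2084D-only. Gene-end windows of 500 and 2000 bp gave V2084D-only shares of 54.6% and 60.7%.

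Leaving out 1 library gave 2188 to 13603 V2084D-only and 71 to 1059 WT-only regions. Gene-end shares were 36.9% to 63.9% and 21.7% to 59.7%, gene counts 1102 to 3775 and 12 to 697, and V2084D shSTUB1 shares 16.5% to 64.5% and 8.23% to 73.8%. The cause of these moves was not tested. By the rule itself, a group left with 1 library needs fewer peaks, and reduced lists hold fewer summits. Merging peaks up to 500 bp apart, or over all 6 lists, left the region counts within 1.5 times. Summits of few reads limit every absence of a peak to what could be called at this depth.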
